A study of Mus musculus with 1376 samples.

Results

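Laminins are large cross-shaped glycoproteins of the basement membrane, each built from an alpha, a beta and a gamma chain. Nidogens are smaller proteins that bind the laminin gamma 1 chain and tie the laminin network to type IV collagen. Around lung vessels, airways and alveoli the mesenchymal cells that touch a basement membrane make laminin alongside the epithelium and endothelium, and the alpha chain carries the main binding sites for integrins and dystroglycan.

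The 10 genes described are the laminin chains Lama2, Lama3, Lama4, Lama5, Lamb1, Lamb2, Lamc1 and Lamc3 and the nidogens Nid1 and Nid2, a list of named family members out of the 46517 genes of the count table. The chains Lama1 and Lamb3 were kept beside them for the shares within the alpha and beta chains, and the shares within the gamma chains are those of Lamc1 and Lamc3 alone.

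Counts came from 1376 single lung cells of 3 mice, all of the ACTA2GFP:CSPG4dsRED strain, whose name gives reporters for smooth muscle actin and for the proteoglycan NG2. No mouse was treated, so every comparison is between cell classes within the same animals. A pair of male mice gave 47.5% (male mouse 1, over 2 plates) and 25.6% (male mouse 2, on 1 plate) of the cells, and 1 female gave 26.96%, on 1 plate of its own. Ages are 8 to 30 weeks in the sample labels and 8 to 21 weeks in the series text, which speaks of male animals only. The tissue label is lung, although the extract protocol speaks of heart and of a skeletal muscle kit, and the sources used do not state the sort gate. Cells had 50835 to 1074103 counts, with a median of 230688, and 0 cells repeated the counts of another. Sex and plate cannot be told apart for male mouse 2 and the female. Wherever values are given per mouse, their order is male mouse 1, male mouse 2, female mouse 1.

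Cells were grouped without the 10 genes, and clusters were named from marker genes with a name ending in -like. The 6 classes with at least 10 cells in every mouse were compared. They were pericyte-like cells (19, 12 and 61 cells per mouse), alveolar myofibroblast-like cells (26, 41 and 35), alveolar fibroblast-like cells (50, 60 and 37), adventitial fibroblast-like cells (25, 20 and 41), airway smooth muscle cell (SMC)-like cells (42, 14 and 29) and vascular SMC-like cells, the most numerous class with 33.5% of all cells, 46 of them from female mouse 1. CPM were counts scaled to a common library size with the TMM factor of each sum. Sums over marker or stress genes and values per kilobase were without that factor. The summed level of 11 pericyte markers was 12169 to 17668 CPM in pericyte-like cells against 2602 to 3362 CPM in vascular SMC-like cells. The smooth muscle classes were less well separated, since their lists share contractile genes. The 10 airway SMC markers summed to 17670 to 25004 CPM in airway SMC-like cells against 18221 to 25846 CPM in vascular SMC-like cells, and were higher in airway SMC-like cells in 1 of 3 mice. The 10 vascular SMC markers summed to 12785 to 18645 CPM in airway SMC-like cells against 17091 to 22950 CPM in vascular SMC-like cells. Markers held by 1 list alone went both ways, with Hhip at 3521 CPM in airway SMC-like and 5.75 CPM in vascular SMC-like cells, Notch3 at 6.96 CPM and 543.7 CPM, and the airway marker Actc1 at 2068 CPM and 3681 CPM (all without the TMM factor). Endothelial markers summed to at most 142.7 CPM and macrophage markers to at most 97 CPM in any of the 6 classes. The 7 cardiomyocyte markers summed to 300.5, 741.4 and 45.1 CPM per mouse in airway SMC-like cells and to at most 75.2 CPM in any other class. Tnnt2 made up most of it, at 252.4 CPM in airway SMC-like cells without the TMM factor, and the defining gene Myh6 was at 0 there. At a finer clustering 14 cells led by Mstn, Ckm and Tnnt2 formed an unnamed cluster with airway SMC as the closest class and cardiomyocyte as the next, and their part in the airway SMC-like values was not tested.

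The beta chains set the classes apart. Lamb1 was high in pericyte-like and both kinds of fibroblast-like cells and low in the other 3 classes, whereas Lamb2 was present in all 6 classes. Their promoter windows, 300 bases around the RefSeq start site on the build GRCm38.p6, are printed here because these genes carry that difference. Capitals mark the GC box GGGCGG or its reverse complement CCGCCC. Lamb1 lies on chromosome 12 at chr12:31265234-31329644 (plus strand, GRCm38) and its window at chr12:31265043-31265342, and Lamb2 lies on chromosome 9 at chr9:108479736-108490530 (plus strand) and its window at chr9:108479612-108479911.
Lamb1: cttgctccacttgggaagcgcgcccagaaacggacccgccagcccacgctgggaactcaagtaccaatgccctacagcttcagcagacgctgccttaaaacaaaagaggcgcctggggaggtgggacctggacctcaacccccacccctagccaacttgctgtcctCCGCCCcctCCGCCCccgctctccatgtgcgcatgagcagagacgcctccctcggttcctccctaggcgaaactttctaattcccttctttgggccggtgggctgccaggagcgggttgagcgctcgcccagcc
Lamb2: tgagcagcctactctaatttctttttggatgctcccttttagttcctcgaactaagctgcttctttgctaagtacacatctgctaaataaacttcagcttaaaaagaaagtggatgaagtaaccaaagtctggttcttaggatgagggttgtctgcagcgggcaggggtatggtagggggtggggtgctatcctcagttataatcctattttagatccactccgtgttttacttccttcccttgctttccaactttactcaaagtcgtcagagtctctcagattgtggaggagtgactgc
The Lamb1 window held 2 GC boxes and 18 CpG dinucleotides, and the Lamb2 window held 0 GC boxes and 4 CpG dinucleotides. Of 32851 RefSeq mouse promoter windows of this length, 35.7% held a GC box, and the median window held 7 CpG dinucleotides. TGGGAA, the core of the RBPJ motif through which Notch acts, occurred 2 times in the Lamb1 window and 0 times in the Lamb2 window, with 25.6% of all windows holding it. GGAATG, a TEAD core, was found in neither, and 14.7% of windows held it. The CArG box, the motif of serum response factor in muscle genes, was found in neither, and 1.63% of windows held one. All motifs were searched on both strands, and a match is only a run of letters in this window.

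**Figure D1:**
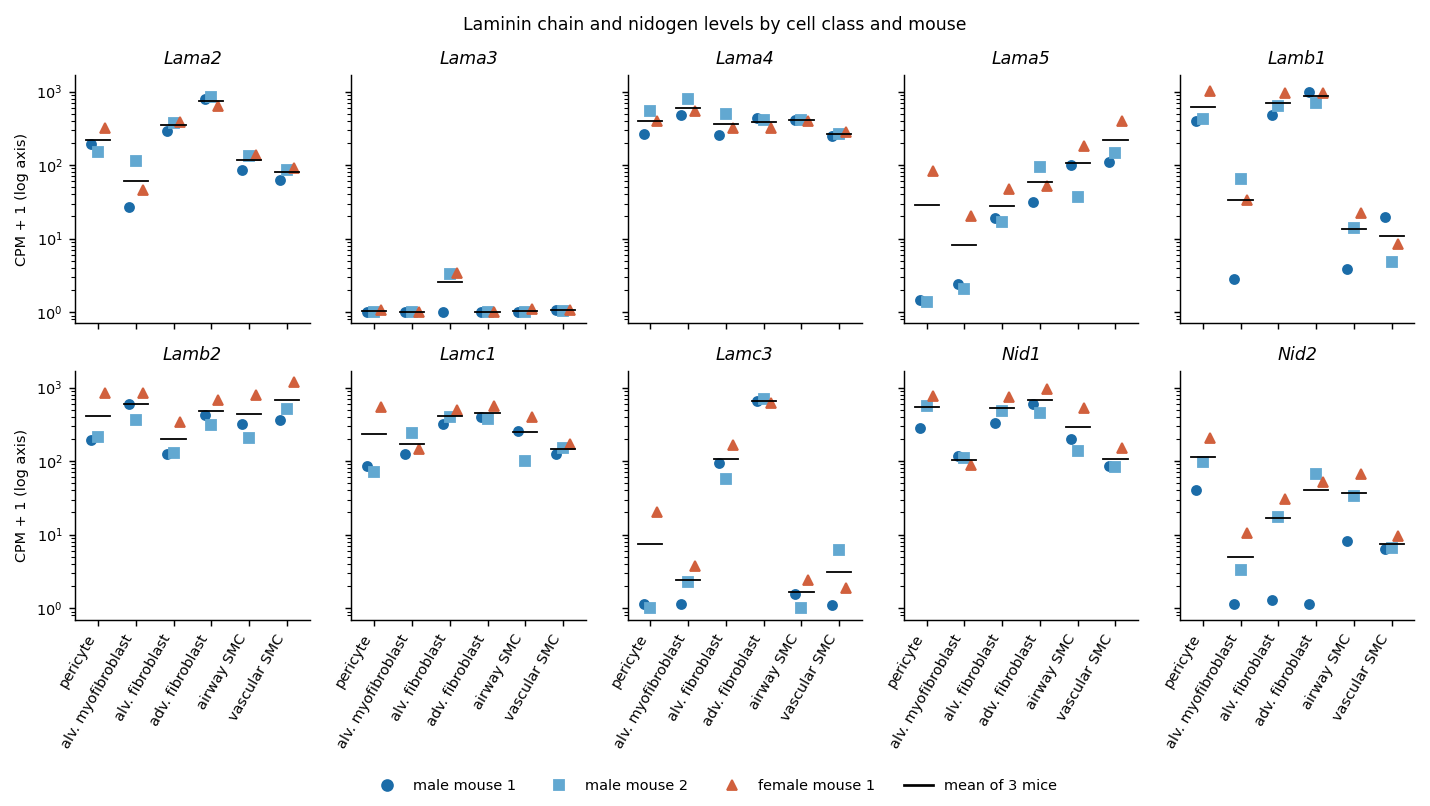
Level of each of the 10 genes as CPM + 1 on a log axis, by cell class, with 1 point per mouse and a bar at the mean of 3 mice. Lamb1 and Lamc3 span the widest range of class means, Lama4 stays within 243.7 to 790 CPM, and Lama3 is at or near 0 in all 6 classes.

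Among the alpha chains, Lama4 and Lama2 were present in all 6 classes, and Lama4 had the narrower range of class means. The alpha 4 chain is typical of vessel walls and other mesenchymal basement membranes. Lama4 (chromosome 10, chr10:38965515-39110188) averaged 400.8 ± 139.1 CPM in pericyte-like, 603.3 ± 164.96 CPM in alveolar myofibroblast-like, 356.02 ± 124.2 CPM in alveolar fibroblast-like, 385.8 ± 64 CPM in adventitial fibroblast-like, 408.1 ± 5.15 CPM in airway SMC-like and 262.8 ± 17.2 CPM in vascular SMC-like cells (SD, n = 3 mice). Alveolar myofibroblast-like cells had the highest mean, with 476.9, 790 and 543.2 CPM per mouse, above every airway SMC-like value. Their lowest value was below the highest of pericyte-like (540.4 CPM) and of alveolar fibroblast-like cells (495.02 CPM). The neighbours further down this order overlapped.

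Lama2, the alpha 2 chain known from muscle and nerve and mutated in a congenital muscular dystrophy, followed the fibroblast classes. Lama2 (chr10:26980036-27619758) had 779, 850 and 629.4 CPM in adventitial fibroblast-like cells per mouse, which was above all other classes. It had 194.4, 149.9 and 319.9 CPM in pericyte-like cells, 25.7, 111.6 and 44.4 CPM in alveolar myofibroblast-like cells and 288.1, 374.6 and 388.9 CPM in alveolar fibroblast-like cells. It had 85.6, 130.7 and 136.2 CPM in airway SMC-like cells and 61.7, 84.6 and 89.4 CPM in vascular SMC-like cells. The values of vascular SMC-like, airway SMC-like and alveolar myofibroblast-like cells ran into each other, and no pericyte-like value was below any of vascular or airway SMC-like cells.

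Lama5, whose alpha 5 chain is typical of endothelial and epithelial membranes and binds the receptor BCAM, had its highest mean in vascular SMC-like cells. Lama5 (chr2:180176373-180225859) had 0.467, 0.382 and 82.3 CPM in pericyte-like cells and 110.5, 145.5 and 393.9 CPM in vascular SMC-like cells, per mouse. Airway SMC-like cells had 100.2, 35.9 and 183.03 CPM, and the other classes averaged 7.23 to 58.4 CPM. The 3 pericyte-like values all lay below the 3 vascular SMC-like values, but the value in female mouse 1 was far from those of both males. Lama3, the alpha 3 chain of epithelial hemidesmosomes, was the lowest member. It had 77 counts over all 6 classes, 68 of them in 5 alveolar fibroblast-like cells, and averaged at most 1.56 CPM in any class.

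Lamb1 levels split the classes into 2 groups that did not overlap. The beta 1 chain is the common beta chain of fetal and interstitial laminins. Lamb1 had 395.4, 421.5 and 1021 CPM in pericyte-like cells, 484.1, 631.6 and 945 CPM in alveolar fibroblast-like cells and 977, 691 and 965 CPM in adventitial fibroblast-like cells, per mouse. It had 1.83, 63.4 and 32.5 CPM in alveolar myofibroblast-like cells, 2.88, 13 and 21.1 CPM in airway SMC-like cells and 18.5, 3.86 and 7.36 CPM in vascular SMC-like cells. Within each of these groups of classes the values overlapped.

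Lamb2, the beta 2 chain first described at neuromuscular junctions and in arterial smooth muscle, ran the other way in part. It had 190.9, 212.7 and 830 CPM in pericyte-like cells, 595.4, 358.98 and 846 CPM in alveolar myofibroblast-like cells and 123.7, 126.8 and 338.4 CPM in alveolar fibroblast-like cells. It had 427.7, 304.5 and 686 CPM in adventitial fibroblast-like cells, 317.4, 201.9 and 801 CPM in airway SMC-like cells and 357.3, 502.4 and 1193 CPM in vascular SMC-like cells. Alveolar fibroblast-like cells had the lowest mean and vascular SMC-like cells the highest, although neighbours in the order overlapped. Female mouse 1 had the highest Lamb2 value in 6 of 6 classes, at 1.42 to 3.89 times the higher male, as did 3.91% of the 16206 genes tested. Sex, plate and animal cannot be told apart in that difference.

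The gamma chains showed 1 broad and 1 narrow pattern. Lamc1, the gamma 1 chain of nearly all laminins and the nidogen binding chain, averaged 146.1 ± 22.5 CPM in vascular SMC-like cells and up to 445.6 ± 106.8 CPM in adventitial fibroblast-like cells, and no neighbours in the order of classes were apart. Lamc1 (chr1:153218922-153332786) had 84.3, 69.6 and 551.1 CPM in pericyte-like cells, so that the female mouse stood far above both males there. Lamc3, the gamma 3 chain, was found mainly in the fibroblast-like classes. Over single alveolar fibroblast-like cells its median was 0 CPM, with an upper quartile of 5.99 CPM and a maximum of 1454 CPM. A minority of these cells thus carried most of the Lamc3 signal of that class. In adventitial fibroblast-like cells the median was 452.2 CPM. Lamc3 (chr2:31887291-31946539) had 646.9, 697 and 605.9 CPM in adventitial fibroblast-like cells and 93.7, 56.1 and 164.01 CPM in alveolar fibroblast-like cells, per mouse. In the other 4 classes it stayed at or below 19.5 CPM, and these ranges did not overlap with either fibroblast class. An antisense gene, Gm13441, overlaps Lamc3, and the sources do not say how strand was treated, so reads of the pair cannot be told apart.

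Nid1 (chr13:13437551-13512269), the main nidogen of most tissues, had 279.5, 566.8 and 773 CPM in pericyte-like, 333.1, 476.6 and 745 CPM in alveolar fibroblast-like and 597.8, 456.005 and 950.5 CPM in adventitial fibroblast-like cells, per mouse. It had 200.1, 136.9 and 524.2 CPM in airway SMC-like, 116.03, 108.1 and 86.3 CPM in alveolar myofibroblast-like and 83.7, 82.6 and 151.3 CPM in vascular SMC-like cells. Nid2 (chr14:19751265-19811787), the second nidogen, was lower throughout. It had 39.7, 96.8 and 205.5 CPM in pericyte-like cells against 5.33, 5.52 and 8.44 CPM in vascular SMC-like cells, and averaged 4.04 to 39.2 CPM in the other classes. Nid2 overlaps the protein-coding gene Rtraf on the other strand and Nid1 the antisense gene Gm48682, with the same limit on strand.

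Over the 6 classes together, 6 of the 10 genes differed between classes (edgeR quasi-likelihood F test with the mouse as a block, Benjamini-Hochberg adjusted p under 0.05), where 13.1% of all genes tested and 11.2% of those not used to cluster did. They were Lamc3, Lama5, Lamb2, Lama2, Lamb1 and Nid1. Lama4 (adjusted p = 0.0620), Nid2 (adjusted p = 0.0558) and Lamc1 (adjusted p = 0.186) missed the threshold, and Lama3 was too low to be tested. All 3 passed by DESeq2 (adjusted p = 0.00326, 0.000249 and 0.0404), and Nid2 also without male mouse 1 (adjusted p = 0.0236) and with cells scaled to the same total (adjusted p = 0.0268). The Lama5 call (adjusted p = 0.0308) was lost without male mouse 1 (adjusted p = 0.277) and without male mouse 2 (adjusted p = 0.202), and the Lamb2 call (adjusted p = 0.00547) was lost without any of the 3 mice (adjusted p = 0.0615, 0.130 and 0.0747 without the first male, the second male and the female). Without the mouse as a block the adjusted p was 0.201 for Lama5 and 0.511 for Lamb2.

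**Figure D2:**
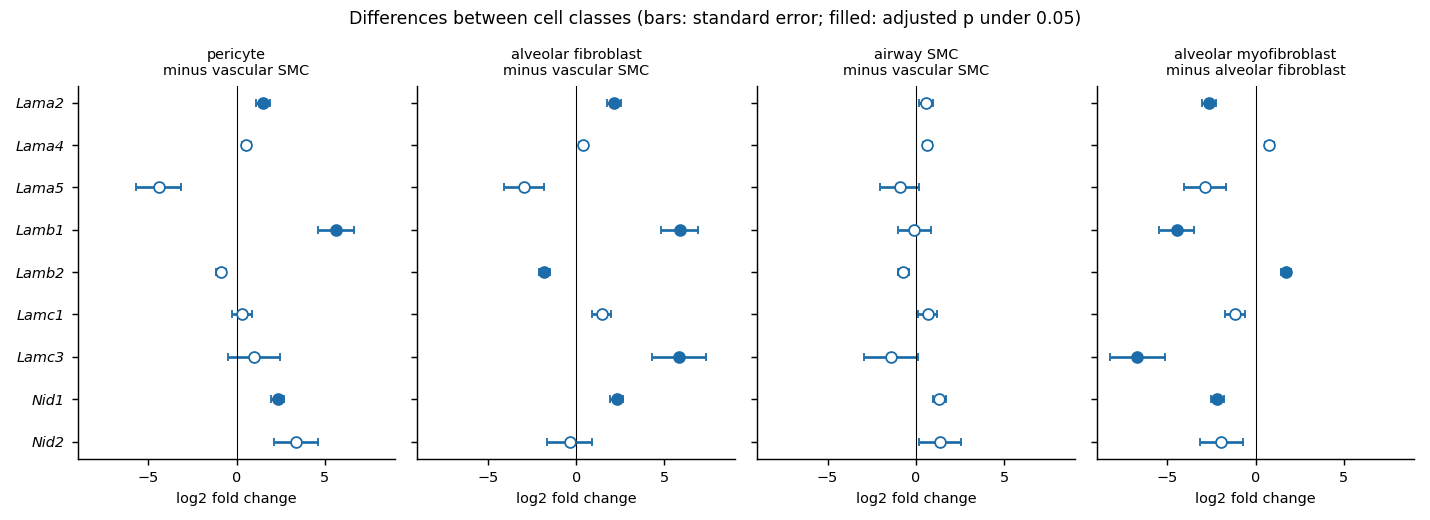
Log2 fold change of the 9 members tested in 4 comparisons of cell classes, with its standard error, filled where the adjusted p was under 0.05. Lamb1, Lama2 and Nid1 are filled and to the right of 0 in pericyte-like and alveolar fibroblast-like cells over vascular SMC-like cells, and filled and to the left in alveolar myofibroblast-like over alveolar fibroblast-like cells.

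Pericytes and vascular SMC are both mural cells, and the question was whether they make the same basement membrane chains. Lamb1, Nid1 and Lama2 were higher in pericyte-like than in vascular SMC-like cells. Lamb1 rose by 5.64 ± 1.03 (log2 fold change ± SE, adjusted p = 0.00435), Nid1 by 2.34 ± 0.37 (adjusted p = 0.00175) and Lama2 by 1.53 ± 0.39 (adjusted p = 0.0386), each higher in 3 of 3 mice. These were 3 of 10 members called, all higher, beside 4.68% of all genes in either direction (3.9% of those not used to cluster), 2.18% higher and 2.5% lower. Lama5 had a log2 fold change of -4.41 ± 1.29 (adjusted p = 0.0687), Lamb2 one of -0.88 ± 0.29 (adjusted p = 0.107) and Nid2 one of 3.38 ± 1.26 (adjusted p = 0.164). The 9 alveolar fibroblast markers summed to 318.6 to 435.8 CPM in pericyte-like cells against 977 to 2067 CPM in vascular SMC-like cells, and the 9 adventitial fibroblast markers to 2516 to 3596 CPM against 2330 to 3340 CPM. Genes of dissociation stress summed to 3642 to 12838 CPM in pericyte-like cells against 13290 to 17225 CPM in vascular SMC-like cells, and their part in the result was not tested. The Lama2 call was lost in 6 alternatives (adjusted p = 0.0552 to 0.248), among them without male mouse 1, without the female, with only both classes in the fit and without the mouse as a block (adjusted p = 0.0883). The Lamb1 call was lost without male mouse 2 (adjusted p = 0.0606) and without the female (adjusted p = 0.124), the Nid1 call without male mouse 2 (adjusted p = 0.0501), and the Lama5 difference passed without the female (-8.04, adjusted p = 0.0095), by DESeq2 (-4.43, adjusted p = 0.000576) and with cells scaled to the same total (-4.43, adjusted p = 0.0374). The Nid2 difference passed by DESeq2 (adjusted p = 0.0135), without male mouse 1 (adjusted p = 0.0329) and with only both classes in the fit (adjusted p = 0.0410).

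The pericyte-like class joined a Clstn2-high cluster of 47 cells and a Col8a1-high cluster of 45 cells. Without the TMM factor, Lamb1 had 1088 CPM in the Clstn2-high and 494.6 CPM in the Col8a1-high cluster over all cells, and Nid1 had 895 and 365.2 CPM. Male mouse 1 gave 7 and 12 of these cells and male mouse 2 gave 9 and 3, so the clusters were not tested against each other.

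Alveolar fibroblast-like cells differed from vascular SMC-like cells in a wider set of chains. Higher were Lamb1 by 5.85 ± 1.04 (log2 fold change ± SE, adjusted p = 0.00249), Lamc3 by 5.83 ± 1.52 (adjusted p = 0.0330), Nid1 by 2.28 ± 0.37 (adjusted p = 0.00123) and Lama2 by 2.16 ± 0.40 (adjusted p = 0.00331). Lower was Lamb2, with a log2 fold change of -1.80 ± 0.29 (adjusted p = 0.00122), with 123.7, 126.8 and 338.4 CPM in alveolar fibroblast-like cells against 357.3, 502.4 and 1193 CPM in vascular SMC-like cells and the same direction in 3 of 3 mice. These 5 of 10 members stand beside 6.29% of all genes called (5.2% of those not used to cluster), 3.67% higher and 2.63% lower. Lamc1 (1.45 ± 0.55, adjusted p = 0.173) and Lama5 (-2.94 ± 1.14, adjusted p = 0.189) missed the threshold although their ranges in these classes did not overlap. Both passed with only the 2 classes in the fit (adjusted p = 0.00422 and 0.00165), Lamc1 also with plate 045s alone for male mouse 1 (adjusted p = 0.0397) and Lama5 also with the split clustering (adjusted p = 0.0496). The Lamc3 and Lama2 calls were lost without male mouse 1 (adjusted p = 0.234 and 0.0699) and without female mouse 1 (adjusted p = 0.141 and 0.0642), and the Lamb1 call was lost without female mouse 1 (adjusted p = 0.108). The Lamb2 call was lost without the mouse as a block (adjusted p = 0.165), and the Lamc3 difference was 3.36 (adjusted p = 0.113) with classes from the split clustering.

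Alveolar myofibroblasts and alveolar fibroblasts share the alveolar wall, and their chains were set apart in both directions. Lamb2 was 1.73 ± 0.29 higher on the log2 scale in alveolar myofibroblast-like than in alveolar fibroblast-like cells (adjusted p = 0.00411). Lamc3 fell by 6.69 ± 1.56 (adjusted p = 0.0325), Lamb1 fell by 4.46 ± 0.98 (adjusted p = 0.0240), Lama2 fell by 2.63 ± 0.41 (adjusted p = 0.00225) and Nid1 fell by 2.17 ± 0.37 (adjusted p = 0.00447). These were 5 of 10 members called, beside 2.65% of all genes (2.02% of those not used to cluster), 0.969% higher and 1.68% lower. All 5 kept their direction in 3 of 3 mice, with no overlap between the classes. The same values gave the calls, so this is no separate support. Lama4, at 0.77 ± 0.25, was higher in 3 of 3 mice and missed the threshold (adjusted p = 0.143), which it passed by DESeq2 (adjusted p = 0.0375). Without male mouse 1 only Lamb1 of these 5 passed, without male mouse 2 only Lama2, and without female mouse 1 there were 0, with 5 of 5 directions kept in each case. Without the mouse as a block Lamb2 (adjusted p = 0.315) and Lamc3 (adjusted p = 0.0598) were not called, and with only both classes in the fit Lamb1 (adjusted p = 0.0625) was not. Alveolar fibroblast markers summed to 221.4 to 403.4 CPM in alveolar myofibroblast-like cells against 4995 to 6803 CPM in alveolar fibroblast-like cells.

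Airway and vascular smooth muscle were compared to ask whether the muscle of bronchi and of vessels carries different laminins. None of the 10 members was called by edgeR at an adjusted p under 0.05, where 2.22% of all genes were (1.6% of those not used to cluster), 1.24% higher and 0.975% lower. At an unadjusted edgeR p under 0.05 there were 3 of 9 tested, Nid1, Lama4 and Lamb2, beside 1877 of all 16206 genes. DESeq2 called 1 of 9, Nid1, beside 6.90% of all genes. Nid1 had 200.1, 136.9 and 524.2 CPM in airway SMC-like cells and 83.7, 82.6 and 151.3 CPM in vascular SMC-like cells (log2 fold change 1.33 ± 0.36, adjusted p = 0.0806). Lama4 was at 402.3 to 412.3 CPM in airway SMC-like cells and at 243.7 to 277.2 CPM in vascular SMC-like cells, with no overlap (0.64 ± 0.25, adjusted p = 0.290). Lamb1, at 12.3 ± 9.11 CPM in airway SMC-like and 9.90 ± 7.63 CPM in vascular SMC-like cells (SD, n = 3), had a log2 fold change of -0.08 ± 0.92. That interval is wide, and it does not show that the classes are alike. Stress genes summed to 21862 to 29400 CPM in airway SMC-like cells and 13290 to 17225 CPM in vascular SMC-like cells.

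Vascular SMC-like cells held 2 clusters, and Nid1 set them apart. In the cluster led by Efhd1 and Sfrp2, Nid1 had 28.9, 11 and 33 CPM per mouse (without the TMM factor), against 113.1, 137.4 and 244.8 CPM in the cluster led by P2rx1 and Stac. The difference was -2.75 ± 0.38 on the log2 scale (adjusted p = 0.00263), the only member called of 10, where 0.353% of all genes were (0.185% of those not used to cluster), 0.0777% higher and 0.275% lower. The call was lost without male mouse 2 (adjusted p = 0.122), without female mouse 1 (adjusted p = 0.0646), and with only these clusters in the fit (adjusted p = 0.135). Lamb1 had 1.73, 1.07 and 5.76 CPM in the Efhd1 and Sfrp2 cluster against 26.4, 5.93 and 8.44 CPM in the other, and missed the threshold (-2.58 ± 0.92, adjusted p = 0.598). Lamb2 and Lama4 had differences of 0.10 ± 0.27 and -0.02 ± 0.24.

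**Figure D3:**
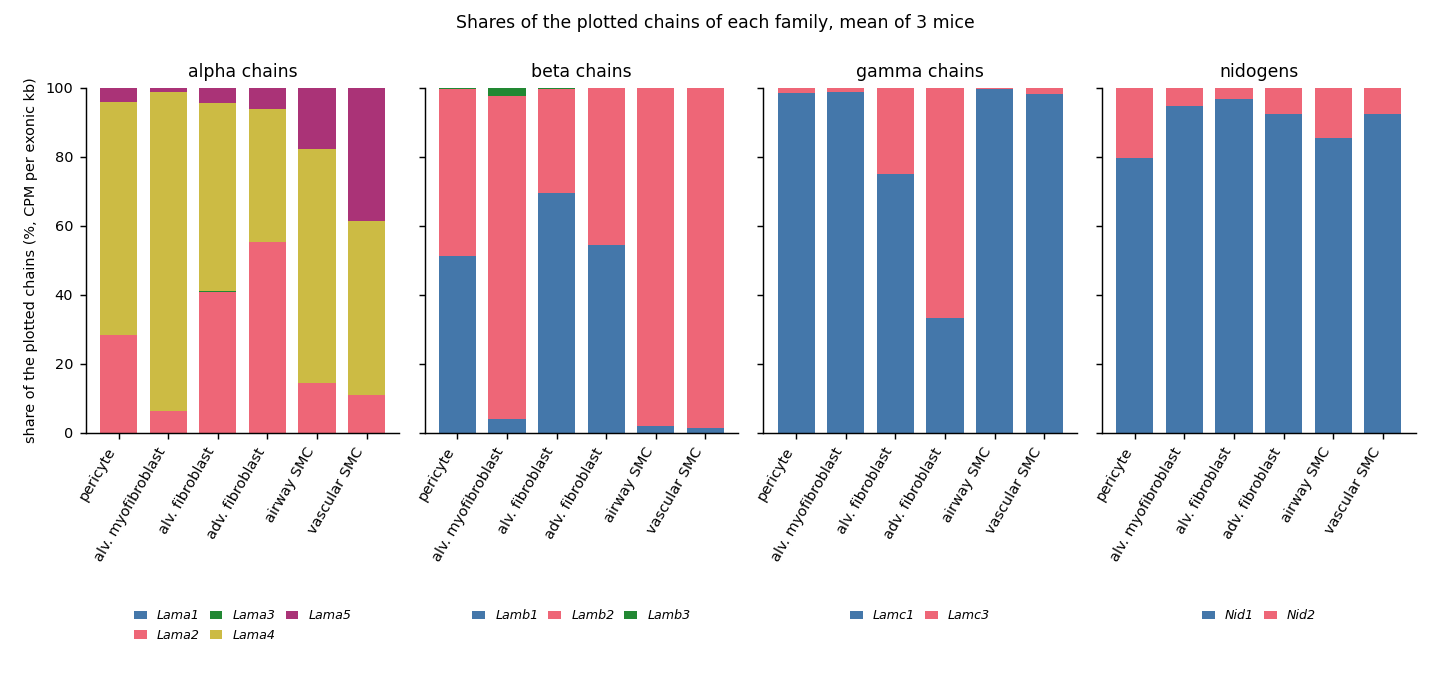
Share of each chain among the plotted chains of its family, from CPM per kilobase of exon, as the mean of 3 mice for 6 cell classes. Lamb1 makes up 51.2% to 69.5% of beta chain signal in pericyte-like and both fibroblast-like classes and at most 4.08% in the other 3, and Lamc3 passes Lamc1 only in adventitial fibroblast-like cells.

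To compare chains with each other, CPM without the TMM factor were divided by the exonic length of each gene. Within the beta chains, Lamb2 made up 98.6% ± 1.57 of the signal in vascular SMC-like, 97.8% ± 1.51 in airway SMC-like and 93.6% ± 3.77 in alveolar myofibroblast-like cells (SD, n = 3 mice). Lamb1 made up 51.2% ± 7.32 in pericyte-like, 69.5% ± 6.14 in alveolar fibroblast-like and 54.3% ± 6.90 in adventitial fibroblast-like cells. Within the alpha chains, Lama4 led in 5 of the 6 classes, from 50.5% ± 12.4 in vascular SMC-like to 92.5% ± 2.98 in alveolar myofibroblast-like cells. Adventitial fibroblast-like cells were the exception, with Lama2 at 55.4% ± 0.36. Lama5 reached 38.5% ± 14.2 in vascular SMC-like cells, with 54.9% in female mouse 1 against 28.8% and 31.9% in the male mice, so that in the female mouse it passed Lama4. That order turned with the longest transcript as length, at 38.5% for Lama5 and 51.1% for Lama4 in the female mouse, and the mean share of Lama5 was then 25.1%. Within the gamma chains, Lamc3 made up 66.6% ± 6.63 of the summed signal of Lamc1 and Lamc3 in adventitial fibroblast-like and 25.1% ± 7.88 in alveolar fibroblast-like cells, and Lamc1 had class means of 98.2% or more in the other 4. Nid2 reached 20.3% ± 5.34 of the nidogen signal in pericyte-like cells. The length chosen matters for these shares, since with the longest transcript in place of all exons Lamb1 in pericyte-like cells came to 62.3%.

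Summed per kilobase, nidogens had their highest class means in the classes high in Lamb1. They reached 101.2 ± 47.4 CPM per kb in pericyte-like, 76.5 ± 27.5 in alveolar fibroblast-like and 98.4 ± 33.4 in adventitial fibroblast-like cells. They were at 48.4 ± 34.1 CPM per kb in airway SMC-like, 15.4 ± 1.10 in alveolar myofibroblast-like and 16.6 ± 5.62 in vascular SMC-like cells. Airway SMC-like values ran from 26.3 to 87.6 CPM per kb. These overlapped pericyte-like, alveolar fibroblast-like and adventitial fibroblast-like cells, whose lowest values were 50.4, 53.1 and 76.2. Alpha chains as a whole were more even, with class means from 45.8 to 79.4 CPM per kb. Beta chains summed to 157.8 ± 39.9 CPM per kb in adventitial fibroblast-like cells, their highest class mean.

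**Figure D4:**
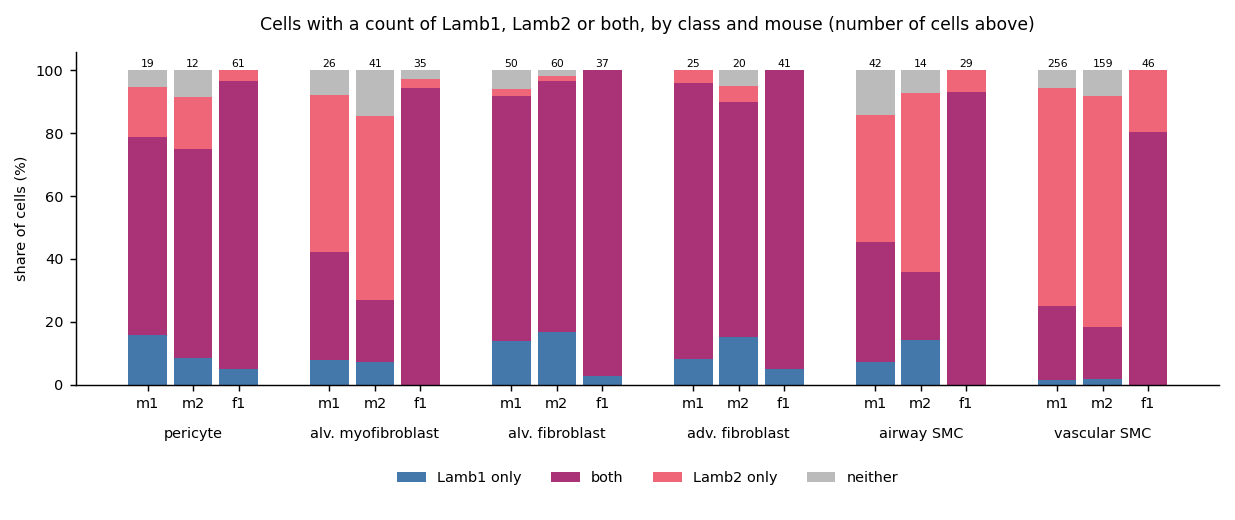
Share of cells with a count of Lamb1 alone, of both beta chains, of Lamb2 alone or of neither, for each class and mouse (m1 and m2, male mice; f1, female mouse 1), with the number of cells above each bar. In both males, vascular SMC-like cells mostly carry Lamb2 alone (69.5% and 73.6%), while both fibroblast-like classes mostly carry both chains.

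By detection, the beta chains separated single pericyte-like from vascular SMC-like cells in the male mice, but much less in female mouse 1. Both chains were detected in 63.2%, 66.7% and 91.8% of pericyte-like cells and in 23.4%, 16.4% and 80.4% of vascular SMC-like cells, per mouse. Lamb2 without Lamb1 was found in 15.8%, 16.7% and 3.28% of pericyte-like cells and in 69.5%, 73.6% and 19.6% of vascular SMC-like cells. With cells thinned to 50000 counts, both chains were found in 47.4%, 50% and 75.4% of pericyte-like cells, per mouse. In vascular SMC-like cells the thinned shares were 6.25%, 5.66% and 30.4%. Detection of Lamb1 in vascular SMC-like cells rested largely on very low counts in every mouse, female mouse 1 included. At 5 counts or more Lamb1 was found in 4.69%, 3.14% and 10.9% of vascular SMC-like cells, against 25%, 18.2% and 80.4% at 1 count or more. Macrophage-like cells of male mouse 1 had a count of Lamb1 in 11.9% of 59 cells (exact 95% interval 4.91% to 22.9%, median 243291 counts per cell). Vascular SMC-like cells of that mouse had one in 25% of cells (19.8% to 30.8%, median 282912 counts). Whether macrophages make Lamb1 was not tested. The exact intervals cover only the sampling of cells within 1 mouse, with cells taken as independent. Reads without molecular identifiers are not independent molecules. A few cells carried most of the Lamb1 signal in vascular SMC-like cells, where the 10% of cells with the highest level held 94.2% of it, against 27.9% in alveolar fibroblast-like cells.

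Whole trimers were counted as cells with a count of each of their 3 chains, which says nothing of protein. The trimer of Lama4, Lamb2 and Lamc1 was complete in 62.7% ± 8.80 of pericyte-like cells, 65.3% ± 18.8 of alveolar myofibroblast-like cells and 54.8% ± 12.95 of vascular SMC-like cells (SD, n = 3 mice). It was complete in 76.8% ± 19.7 of alveolar fibroblast-like, 76.7% ± 15.4 of adventitial fibroblast-like and 69.9% ± 20.9 of airway SMC-like cells. The same trimer with Lamb1 in place of Lamb2 was complete in 60.5% ± 9.12 of pericyte-like, 39.7% ± 37.4 of alveolar myofibroblast-like, 85.6% ± 15.03 of alveolar fibroblast-like, 82.2% ± 11.4 of adventitial fibroblast-like and 49.7% ± 35.6 of airway SMC-like cells, against 26.3% ± 26.3 of vascular SMC-like cells. That of Lama2, Lamb1 and Lamc3 was complete in 79.5% ± 9.04 of adventitial fibroblast-like, 45.8% ± 21.3 of alveolar fibroblast-like and 2.85% ± 3.19 of vascular SMC-like cells. That of Lama5, Lamb2 and Lamc1 was complete in 46.5% ± 24.04 of vascular SMC-like cells, the highest mean of the 6 classes. The lowest means were 16.4% ± 14.5 in alveolar myofibroblast-like and 18.2% ± 19.8 in pericyte-like cells. Their order turned in cells thinned to 50000 counts, at 5.42% and 4.92%. With every cell thinned to 50000 counts in 1 random draw, the means for vascular SMC-like cells were 37.6% with Lama4 and Lamb2, 6.18% with Lama4 and Lamb1 and 27.7% with Lama5 and Lamb2. With Lama4 and Lamb1 the thinned means were 32.3% in pericyte-like, 8.29% in alveolar myofibroblast-like and 10.3% in airway SMC-like cells. Alveolar and adventitial fibroblast-like cells had 74.1% and 67.6%. With Lama4 and Lamb2 the thinned means were 27.7% in pericyte-like, 32.6% in alveolar myofibroblast-like and 45.9% in airway SMC-like cells. Alveolar and adventitial fibroblast-like cells had 59% and 57.2% of that trimer. With Lama2, Lamb1 and Lamc3 the thinned means were 23.8% in alveolar fibroblast-like, 67.9% in adventitial fibroblast-like and 0% in vascular SMC-like cells.

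The other cells of the table showed further combinations, with no replicate check. Endothelial-like cells came from female mouse 1 for 65 of 66 cells. In that mouse they had 381.7 CPM of Lama5 (a count in 73.8% of cells, exact 95% interval 61.5% to 84%), 305.1 CPM of Lamb2 and 172.7 CPM of Nid1, against 3.43 CPM of Lama2 and 11.6 CPM of Lamb1. Macrophage-like cells had at most 27.9 CPM of any member over all cells. An unnamed cluster with 13.2% of all cells, led by Msln and Lrrn4, had 173.2 CPM of Lamb1, 493.1 CPM of Lamb2 and 371.1 CPM of Lama4. An unnamed cluster of 91 cells led by Kcna1 and Gpr37l1 had 64.7 CPM of Lamb1, 144.96 CPM of Lamb2, 144.5 CPM of Lama4 and 114.7 CPM of Nid1. The CPM of this paragraph lack the TMM factor.

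The chains Lama1 and Lamb3 were low. Lama1 averaged at most 0.0963 CPM in any class. Lamb3 had 47.5, 0.116 and 0.349 CPM per mouse in alveolar myofibroblast-like cells, where 2 cells held all counts of male mouse 1, and at most 9.26 CPM in any mouse in the other classes. Lamb3 was tested by edgeR and had adjusted p-values of 0.349 or more in every comparison, the one over all classes included.

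Other basement membrane genes moved between the same classes. Of 24 such genes 22 were tested. In pericyte-like over vascular SMC-like cells 5 were higher and 2 lower (31.8% called beside 4.68% of all genes), with a median log2 fold change of -0.72 beside -0.24 over all genes. Egflam, which encodes pikachurin, a ligand of dystroglycan, was 5.76 ± 0.65 higher (adjusted p = 0.000109), and the calcium binding protein gene Smoc1 fell by 7.99 ± 1.46 (adjusted p = 0.00426). In alveolar fibroblast-like over vascular SMC-like cells 8 were higher and 3 lower (50% beside 6.29%), with a median of 0.96 beside -0.08 over all genes, and Fbln1, which encodes fibulin 1, was 7.74 ± 0.75 higher (adjusted p = 1.31e-05). In alveolar myofibroblast-like over alveolar fibroblast-like cells 1 was higher and 6 were lower (31.8% beside 2.65%), with a median of -1.13 beside -0.05. Npnt, which encodes nephronectin, a ligand of integrin alpha 8, fell by 4.97 ± 0.55 there (adjusted p = 9.35e-05). In airway over vascular SMC-like cells 2 were higher and 5 lower (31.8% beside 2.22%), with a median of -0.03 beside -0.20, and Col18a1, whose product is the source of endostatin, fell by 5.67 ± 0.82 (adjusted p = 0.00125).

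Of 12 laminin receptor genes 11 were tested, and 0 were higher and 4 lower in alveolar fibroblast-like than in vascular SMC-like cells (36.4% called beside 6.29% of all genes), with a median log2 fold change of -1.22 beside -0.08 over all genes. They were Itga7, the alpha subunit of the muscle laminin integrin, which fell by 8.78 ± 0.96 (adjusted p = 4.33e-05), Bcam, Itga1 and Itgb1. Bcam, the receptor for the alpha 5 chain, averaged 30.4 ± 23.3 CPM in alveolar fibroblast-like and 822 ± 413.3 CPM in vascular SMC-like cells. It also fell in airway over vascular SMC-like cells, by 3.42 ± 0.66 (adjusted p = 0.0115), the 1 receptor of 11 called there (9.09% beside 2.22% of all genes). In pericyte-like over vascular SMC-like cells 1 receptor was called, Sdc2, a syndecan, which rose by 1.21 ± 0.24 (adjusted p = 0.00805). That is 9.09% of the receptors tested, beside 4.68% of all genes. None was called in alveolar myofibroblast-like over alveolar fibroblast-like cells by edgeR, where 2.65% of all genes were. At an unadjusted edgeR p under 0.05 there were 3 of 11 receptors, beside 2037 of all 16206 genes. DESeq2 called 2 of 11, beside 8.09% of all genes. Of 17 genes of the dystroglycan complex and its glycosylation, 0 were higher and 1 lower in pericyte-like than in vascular SMC-like cells (5.88% beside 4.68% of all genes), a share near the background. In alveolar fibroblast-like over vascular SMC-like cells 0 were higher and 2 lower (11.8% beside 6.29%). Sgca, which encodes a sarcoglycan, averaged 0.601 ± 0.54 CPM in pericyte-like and 140.4 ± 42 CPM in vascular SMC-like cells (SD, n = 3 mice), and fell by 7.66 ± 1.69 on the log2 scale (adjusted p = 0.0153). In alveolar fibroblast-like cells Sgca and Dmd, which encodes dystrophin, were the 2 lower genes, and Dmd fell by 2.57 ± 0.58 (adjusted p = 0.0133).

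Genes whose levels ran most like a member were ranked by Pearson's r of log2 levels over the 18 sums of 6 classes in 3 mice, among 10409 genes, as a description, since the sums share mice and classes. For Lamb1 these were Hsd11b1 (r = 0.943), Irf8 (0.942) and Pcdhga4 (0.926). For Lamc3 they were Cfb (r = 0.974), Adcyap1r1 (0.966) and Dpep1 (0.957). For Nid1 they were Tcf4 (r = 0.906), Tmem204 (0.844) and Ifitm1 (0.841). For Lama4 the closest gene reached 0.727.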

How the data were processed

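Single lung cells on plates were sequenced by Smart-Seq2, per the labels' protocols. The table deposited by the authors holds raw read counts per Ensembl gene and cell. The submitters' processing notes list featureCounts, Subread, Bowtie, Bowtie2, bcl2fastq, GRCm38 and mm10. How strand and multi-mapping reads were treated was not stated. Symbols and coordinates came from GENCODE M21 (GRCm38), promoter sequences from RefSeq (GRCm38.p6), which held windows for 5 of the 10 members.

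Male mouse 1, male mouse 2 and the female gave 653, 352 and 371 cells, with 256, 159 and 46 vascular SMC-like ones. Counts were scaled to 10000 per cell and logged. Cells were clustered on 2000 variable genes, without the members and the lists of basement membrane, receptor and dystroglycan genes, by 30 principal components, 15 neighbours and the Leiden method at resolution 1 (leidenalg 0.10.2). A class name needed a positive score, 3 detected markers and a score 0.2 above every other class. Each margin was computed without the markers both lists hold, a rule made once the clusters were known. No other class could hold more markers among the 10 leading genes of the cluster than the class named. In all, 273 cells stayed unnamed. No doublet caller was run. Some genes of the lists are not reported here, and counts over the lists leave them out. Members, lists and tests were chosen with earlier results of these data known.

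Counts were summed per class and mouse (2413919 to 77442342 per sum) and tested with edgeR 4.0.16 (quasi-likelihood, TMM, filterByExpr, mouse as block, two-sided, Benjamini-Hochberg over 16206 genes, or 16721 for the clusters of vascular SMC), checked on simulated counts, with DESeq2 1.42.0 as an alternative. The block rests on classes coming from the same 3 animals. The standard error is the log2 fold change divided by the root of F. Named genes outside the members are at most the 4 called with the largest change per list and comparison, and the 3 most like each member. Shares of cells were also computed with cells thinned to 50000 counts.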

Additional observations from a re-analysis of the deposited data

Results flagged for a closer look

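Lamc1 in pericyte-like over vascular SMC-like cells went in opposite directions in the mice of each sex. Its log2 ratio was 1.71 in female mouse 1, with 551.1 CPM in pericyte-like and 167.8 CPM in vascular SMC-like cells. It was -0.54 in male mouse 1 (84.3 CPM against 122.9 CPM) and -1.07 in male mouse 2 (69.6 CPM against 147.5 CPM). The difference was not tested, as only 1 mouse was female and sex, plate and animal cannot be told apart. The pericyte-like sum rested on 61 cells in female mouse 1 and on 19 and 12 cells in the male mice.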

How the results depend on the processing

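The 4 pairwise comparisons of classes, the test over all classes and that of the vascular SMC clusters were refitted under each alternative, and genes called are given here as a percentage of the genes tested with the filter on low counts. The tool and the number of mice moved these counts most. DESeq2 called 6.90% in airway over vascular SMC-like cells (2.22% by edgeR), 12.9% in pericyte-like over vascular SMC-like (4.68%), 11.2% in alveolar fibroblast-like over vascular SMC-like (6.29%), 8.09% in alveolar myofibroblast-like over alveolar fibroblast-like (2.65%), 24.4% over all classes (13.1%) and 1.92% between the vascular SMC clusters (0.353%), with 1, 5, 5, 6, 9 and 1 members in that order. Leaving out 1 mouse gave 0.562% to 1.08%, 1.81% to 1.92%, 2.60% to 3.20%, 0.815% to 0.9996%, 5.04% to 6.21% and 0.0299% to 0.132%, with 0, 1 to 3, 2 to 5, 0 to 1, 4 to 5 and 0 to 1 members. With only the classes compared in the fit it was 2.48% in pericyte-like and 10.9% in alveolar fibroblast-like over vascular SMC-like cells, and 0.0957% with 0 members between the clusters. Without the replicate block, 3 members in place of 5 were called in alveolar myofibroblast-like over alveolar fibroblast-like cells and 0.203% of genes between the clusters. The block moved no other count of calls by over 1.5 times.

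No called member changed direction in these alternatives. Lamb1 in airway over vascular SMC-like cells, which was not called, turned to 0.039 by DESeq2, 0.30 without the replicate block, 0.46 with only both classes in the fit and 0.14 with plate 045s alone for male mouse 1. Nid2 in alveolar fibroblast-like over vascular SMC-like cells turned to 1.28 without the replicate block and 0.31 with only both classes in the fit, and Lama4 between the clusters to 0.054 with plate 046s alone. With 1 mouse left out, members that were not called and turned ranged as follows: Lamb1 from -0.88 to 1.65 and Lamc3 from -2.45 to 1.45 in airway, Lamc1 from -0.66 to 0.86 and Lamc3 from -3.80 to 4.00 in pericyte-like, and Nid2 from -1.63 to 1.72 in alveolar fibroblast-like, each over vascular SMC-like cells. Between the clusters Lama2 ranged from -0.40 to 0.065, Lama4 from -0.16 to 0.14, Lamc3 from -0.46 to 3.98 and Nid2 from -5.46 to 0.22. The cause was not tested. Airway SMC-like cells had no class of their own at Leiden resolution 2, pericyte-like cells had under 10 cells in a mouse with plate 045s alone and in 1 part of the split clustering, and the Efhd1 cluster was unnamed in the other part, so these were not run. Shares of cells with a count moved most often with a threshold of 5 counts (61 shares), and next with cells thinned to 50000 counts (42 shares).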
